A study of Rattus norvegicus with 3 samples.

Results

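The presynaptic release machinery is described here through 32 genes that were chosen by name, and all 32 were listed among the 29772 genes of the deposited count matrices. Cells from the cerebral cortex of wildtype rat embryos were profiled by droplet single-cell RNA sequencing in 3 libraries, which the submitters labelled with embryonic days 14, 16 and 18 and each library is called here by its label, as the library labelled E14 and so on. The tissue was fresh and was dissociated with papain. No strain, sex, treatment or transgene is named for any library, and how many embryos each one pools is not given in the sources used here. Each label has 1 library, so age and library cannot be told apart, no difference has a replicate check and no test was made. The labels' protocol text also describes expansion cultures, multiplexing oligonucleotides and antibody sorting of human cells, and which of these steps the rat cells went through is not known.

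A nerve terminal fuses a vesicle with its membrane when Snap25 and Stx1a on the plasma membrane zip together with a vesicle synaptobrevin (Vamp) into the SNARE complex, which Nsf and its adaptors later take apart. Synaptotagmins sense the calcium that triggers fusion, complexins clamp and promote it, Unc13a and Cadps ready the vesicle, and the active zone proteins Rim, Bassoon, Piccolo and ELKS hold it beside calcium channels. In the cortex these neurons descend from radial glia, the stem cells of the ventricular zone, and from intermediate progenitors, and they switch on parts of this machinery while their axons still grow and before most synapses exist.

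The promoters of 27 members were matched by symbol in a RefSeq table of build GRCr8, each running from 250 bases before to 50 bases after the start of transcription. Snap25, Syt5, Syt7, Syn3 and Rims2 were not analysed here. Those 27 promoters and all 27457 promoters of the table were searched on both strands for the element bound by the neuronal gene repressor REST, called RE1. It was taken as a left part TTCAGCACC, any bases at the next positions NN, a right part GGACAGC and then GCC, with up to 4 mismatches at its 19 fixed positions. They were also searched for the left part and the right part without mismatch, and for the cyclic AMP response element CRE (TGACGTCA). The full RE1 was in 0 of the 27 member promoters and in 0.284% of all promoters. The left part was in 1 member, Unc13a, and in 0.379% of all promoters. Both parts, at any distance and on either strand, were in the same member and in 0.0583% of all promoters, and in Unc13a they lie further apart than the NN of the full element. The right part, with or without the left, was in 4 members, Unc13a among them, against 6.64% of all promoters. CRE was in 2 members, Vamp1 and Syn1, against 1.91%. The parts overlap the full element by construction. The promoters of Unc13a (chr16:18415737-18416036, minus strand), Vamp1 (chr4:159698644-159698943, plus strand) and Syn1 (chrX:3725495-3725794, plus strand) are printed because they carry both RE1 parts or CRE, which stand in capitals. Each runs 5′ to 3′ along its gene. The count matrices were made on build mRatBN7.2, and these coordinates hold for GRCr8 only.
Unc13a: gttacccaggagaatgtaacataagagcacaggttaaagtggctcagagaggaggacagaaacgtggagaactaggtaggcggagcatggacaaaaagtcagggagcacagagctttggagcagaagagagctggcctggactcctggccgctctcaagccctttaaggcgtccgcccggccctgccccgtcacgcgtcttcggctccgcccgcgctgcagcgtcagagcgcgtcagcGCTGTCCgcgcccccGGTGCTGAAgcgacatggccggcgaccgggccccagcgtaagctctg
Vamp1: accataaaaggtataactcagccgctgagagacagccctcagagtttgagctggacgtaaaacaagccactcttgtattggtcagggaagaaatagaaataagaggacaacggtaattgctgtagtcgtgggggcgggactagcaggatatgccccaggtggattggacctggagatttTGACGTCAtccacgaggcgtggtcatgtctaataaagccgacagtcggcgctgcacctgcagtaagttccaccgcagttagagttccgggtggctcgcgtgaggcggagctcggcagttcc
Syn1: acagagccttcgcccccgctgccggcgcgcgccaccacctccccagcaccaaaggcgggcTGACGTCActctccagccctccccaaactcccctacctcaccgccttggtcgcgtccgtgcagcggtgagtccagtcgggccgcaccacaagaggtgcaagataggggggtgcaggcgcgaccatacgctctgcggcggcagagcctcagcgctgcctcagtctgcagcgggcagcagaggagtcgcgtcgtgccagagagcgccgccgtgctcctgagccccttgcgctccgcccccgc
In the Unc13a promoter both parts read on the strand opposite to the gene, and the first capitals of each lie at -12 and 3 when the first transcribed base is 0. CRE starts at -71 in the Vamp1 promoter and at -190 in the Syn1 promoter. A match of letters is a description of the sequence and not a measured binding site.

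The libraries held 62740631 to 80974234 unique molecular identifiers (UMIs, each standing for 1 captured transcript) in 6707 to 7100 barcodes, and 4286, 4977 and 5431 cells were kept, in the order of the labels E14, E16 and E18 that is used throughout. Pairs of libraries shared 12 to 17 barcodes, of which 6 to 8 were among the kept cells. In radial glia, stage genes went against the label order. Hmga2, an early-stage gene, was at 11.7, 235 and 22.5 UMIs per 1000000 UMIs of the class (CPM). Lin28b, another, was at 0, 6.33 and 1.04 CPM, where 3 UMIs would be 0.509 CPM in the first. Aldoc, a late-stage glial gene, was at 739, 14.7 and 236 CPM, and Tnc, another, at 115, 0.142 and 4.84 CPM. All 4 put the library labelled E16 at the early end and that labelled E14 at the late end, so every direction given here is between libraries as labelled and not between known ages.

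Cells were grouped by clustering without the 32 members and named from marker genes, so the names stand for radial glia-like, intermediate progenitor-like and neuron-like cells. Progenitors, which are radial glia and intermediate progenitors together, numbered 846, 2643 and 2832. Intermediate progenitors made up 444, 463 and 1114 of them. Newborn excitatory neurons numbered 1391 in the library labelled E14 (clusters 3 and 16) and 1744 in that labelled E18 (clusters 2 and 7), and maturing excitatory neurons 1940 (clusters 0, 8 and 12) and 511 (mostly cluster 12). Of the 4977 cells labelled E16, 0 were named maturing and 4 newborn when the libraries were clustered together. That depends on the clustering and filtering: 160 cells labelled E16 were named maturing with each library clustered on its own, 46 with the looser cell filter and 12 with the stricter one. Apart from 144 Cajal-Retzius cells and 78 cells of the GABAergic lineage, most neurons of that library were in cluster 14, which is led by Calb1, Calb2, Lhx9 and Ebf1 and keeps no name because only 2 markers of its best class, Cajal-Retzius cells, were raised. The 554 cells of that cluster and the 4 newborn cells, 558 in all, stand in the place of newborn neurons for that label and are called the Calb1-led neurons. Another 5, 1203 and 100 cells were in unnamed clusters, led by S phase genes with Wnt8b or by Fgf17 and Fgf8, and are left out of the classes. In a class summed over cells, fewer cells with a transcript and less of it per cell cannot be told apart, except where shares of cells are given.

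Most members were higher in newborn or Calb1-led neurons than in progenitors of the same library, among them Syt4, Rab3a and Snap25. A member counts as higher or lower, and is said here to rise or fall, when its CPM with 1 CPM added differed at least 2-fold and its mean over the pair was at least 5 CPM. In the library labelled E14, 19 of 32 rose and 0 fell, where 9.26% of all genes past the minimum rose and 13.9% fell. In that labelled E16, 21 rose and 0 fell, where 14.1% of all genes rose and 16% fell. In that labelled E18, 18 rose and 0 fell, where 10.6% of all genes rose and 14.3% fell. Over the 3 libraries, 25 of 32 rose in 1 or more and 15 in each, while Syt11, Syn1, Rims2 and Nsf passed the minimum in each and rose in none. With a minimum of 20 CPM, which tests fewer genes, 7, 4 and 6 rose. Some members were under the minimum level of 5 CPM, 7, 3 and 8 of them in label order, and a low member can pass the minimum only through the class in which it is high. The median log2 ratio over all 32 members was 1.40, 2.35 and 1.68, and over all genes past the minimum -0.09, -0.05 and -0.06. Summed over the members, progenitors had 426 (414 to 438), 354 (348 to 360) and 383 (377 to 390) CPM, and the neurons 1147 (1128 to 1167), 1262 (1231 to 1293) and 1167 (1150 to 1184) CPM. Intervals here and below are 95% and cover counting error only. With a stricter cell filter, which left 53 newborn neurons and 210 progenitors labelled E14, 5 members rose and 1 fell in that library, and Syt1 and Syt5 were lower in newborn neurons than in progenitors, at log2 ratios of -1.22 and -0.03.

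**Figure D1:**
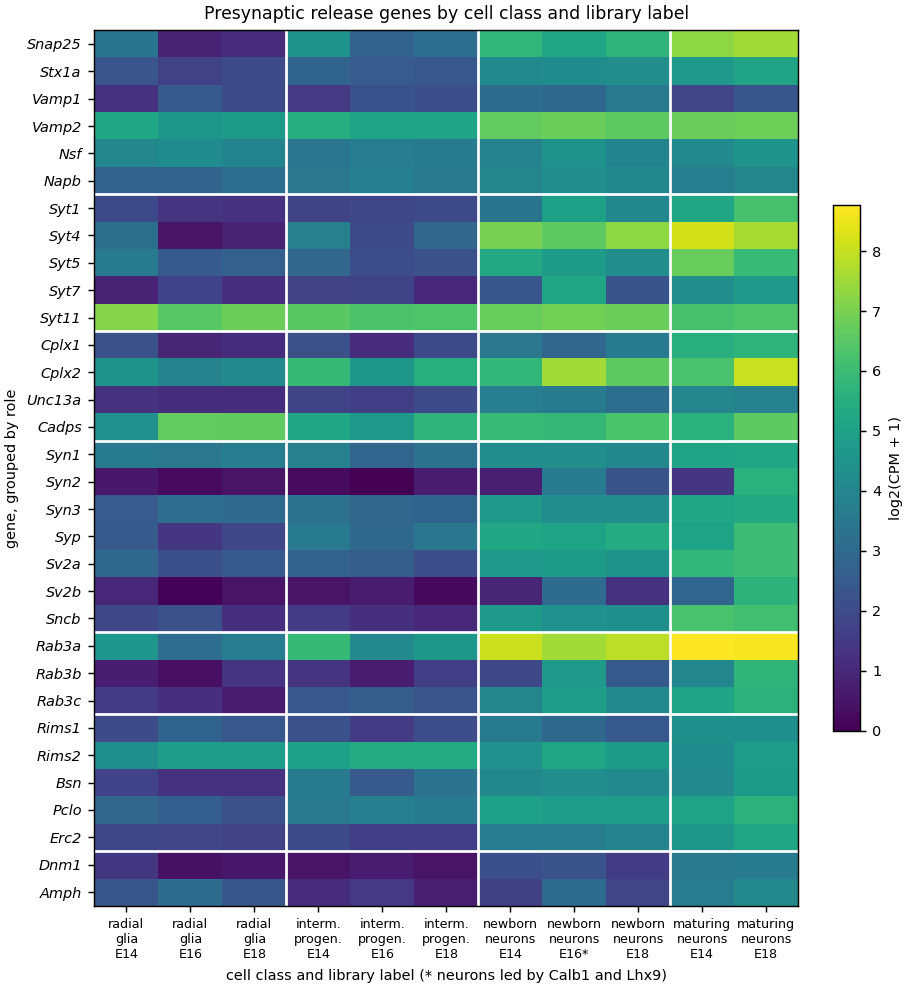
Level of each member as log2(CPM + 1), in rows grouped by role, in radial glia, intermediate progenitors, newborn neurons and maturing neurons (columns) of each library label; the starred column is the Calb1-led neurons of the library labelled E16. Rab3a and Syt4 brighten from left to right, while Syt11 is bright in progenitors already.

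Maturing neurons had more again. In the library labelled E14, 12 of 32 members rose from newborn to maturing neurons and 1 fell, where 5.03% of all genes rose and 5.28% fell. In the library labelled E18, 18 rose and 1 fell, where 6.73% of all genes rose and 3.90% fell. The member that fell was Vamp1 in both. In both libraries 11 members rose, namely Snap25, Syt1, Syt5, Syt7, Sv2a, Cplx1, Rab3b, Rab3c, Sncb, Dnm1 and Amph, and 13 that passed the minimum rose in neither. The median log2 ratio over all 32 was 0.74 and 1.16, beside -0.09 and -0.02 over all genes past the minimum. Over the alternatives the members' median ran from 0.47 to 2.01 labelled E14 and from 0.96 to 1.60 labelled E18. The members summed to 1880 (1865 to 1896) CPM in maturing neurons labelled E14 and 2293 (2258 to 2329) CPM in those labelled E18. The stricter cell filter, with 54 maturing and 53 newborn neurons labelled E14 left, gave 21 that rose and 0 that fell in that library. Of 11 dissociation stress genes, 5, 3 and 6 passed the minimum at the first step, where 3, 1 and 1 rose and 0, 1 and 2 fell. At the second step 5 and 5 passed, 0 and 0 rose and 3 and 2 fell. The median mitochondrial share of UMIs was 5.63%, 3.62% and 4.47% in progenitors, 7.47%, 5.92% and 5.71% in newborn or Calb1-led neurons and 6.99% and 5.86% in maturing neurons. The part of either in the members' steps was not tested.

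**Figure D2:**
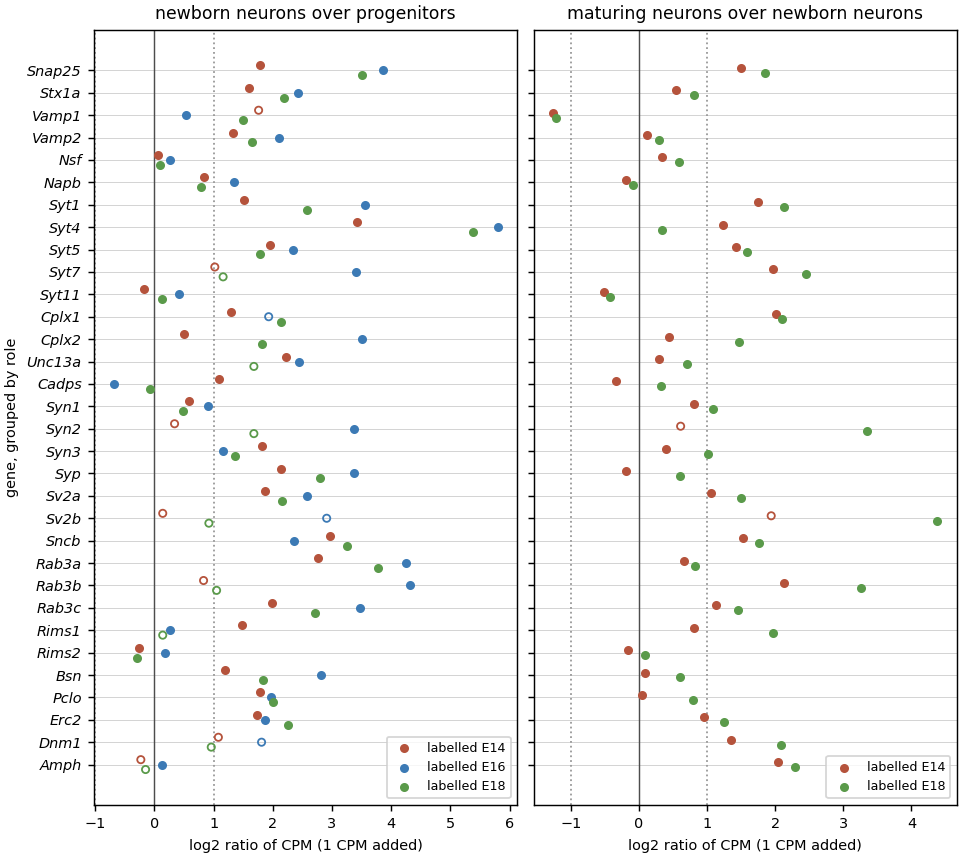
Log2 ratio of CPM (1 CPM added) for each member in newborn neurons over progenitors (left, 3 library labels) and in maturing over newborn neurons (right, 2 labels). For the label E16 the left panel shows the Calb1-led neurons in place of newborn neurons. Filled points passed the minimum of 5 CPM, open points did not, and dotted lines mark 2-fold. Syt4 and Rab3a lie far to the right in the left panel, and Vamp1 lies at -1.26 and -1.22 in the right panel.

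Among the SNARE genes, Snap25 rose at both steps. It was at 14.97, 1.46 and 3.58 CPM in progenitors, at 53.9, 34.9 and 50.9 CPM in newborn or Calb1-led neurons, and at 154 and 186 CPM in maturing neurons labelled E14 and E18. Neurons were above progenitors in every library, and the progenitors labelled E14 were the highest of their class. The first step was 3.60-fold (3.03 to 4.31), 23.9-fold (17.7 to 32.6) and 14.2-fold (11.8 to 17.2), and the second 2.86-fold (2.62 to 3.12) and 3.65-fold (3.34 to 3.99). The second step labelled E14 was uneven over the maturing clusters. Cluster 0, with 1124 of the 1940 cells, was at 67.5 CPM of Snap25, and cluster 8 at 268 CPM. Stx1a, the partner syntaxin, was at 4.96, 2.55 and 3.39 CPM in progenitors and at 17.0, 18.0 and 19.0 CPM in the neurons, a rise of 3.43-fold, 7.07-fold and 5.60-fold. Its maturing neurons, at 25.2 and 34.0 CPM, were 1.48-fold and 1.79-fold above the newborn ones, short of 2-fold.

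The 2 vesicle synaptobrevins took different courses. Vamp2, the main synaptobrevin of forebrain terminals, was at 39.4, 24.9 and 28.8 CPM in progenitors and at 99.6, 111 and 92.4 CPM in the neurons. Radial glia had 36.5, 23.8 and 26.3 CPM, inside the intervals of microglia and mural cells, at 32.5 (21.2 to 47.6), 20.95 (11.97 to 34.0) and 20.6 (11.5 to 34.0) CPM. The step from progenitors to neurons was 2.53-fold (2.26 to 2.83), 4.45-fold (4.0 to 4.93) and 3.21-fold (2.96 to 3.47), and maturing neurons, at 108 and 113 CPM, were 1.08-fold and 1.23-fold of newborn neurons. Most of the Vamp2 increase thus came at the first step. Vamp1, the form better known from the spinal cord and brainstem, was at 1.53, 4.45 and 3.17 CPM in progenitors and at 7.55, 6.86 and 10.7 CPM in the neurons. It then fell to 2.56 and 4.05 CPM in maturing neurons, 0.340-fold (0.245 to 0.470) and 0.377-fold (0.245 to 0.563). The values are near the minimum level of 5 CPM and rest on 74 and 29 UMIs in maturing neurons, and the call was lost under 9 of 14 alternatives in the library labelled E14 and 5 of 13 in that labelled E18. Nsf, the ATPase that recycles SNARE complexes, was at 12.8, 17.3 and 13.6 CPM in progenitors and 13.4, 21.0 and 14.5 CPM in the neurons, a first step of 1.05-fold, 1.21-fold and 1.07-fold. Napb, the brain form of its adaptor, rose 2.79-fold (2.18 to 3.53) in the library labelled E16, and its 1.87-fold and 1.80-fold in the other libraries were short of the threshold.

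Of the synaptotagmins, Syt4 had the steepest first step. This form, found largely on dense-core vesicles, was at 10.6, 0.717 and 2.71 CPM in progenitors and at 125, 94.4 and 154 CPM in the neurons. The rise was 11.7-fold (9.69 to 14.2), 132-fold (90.5 to 199) and 56.7-fold (46.4 to 69.9). Maturing neurons were at 294 and 194 CPM, 2.36-fold above newborn neurons in the library labelled E14 and 1.26-fold in that labelled E18. Syt1, the fast calcium sensor of cortical terminals, was low in progenitors, at 2.71, 1.71 and 1.87 CPM. It was at 9.53, 30.8 and 16.1 CPM in the neurons and at 34.4 and 73.9 CPM in maturing neurons, a second step of 3.61-fold (2.95 to 4.45) and 4.60-fold (3.94 to 5.37).

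Syt5 and Syt7 also rose with maturation. Syt5 was at 9.02, 4.38 and 4.80 CPM in progenitors, at 38.0, 26.3 and 19.0 CPM in the neurons and at 104 and 58.8 CPM in maturing neurons, the second step being 2.74-fold (2.47 to 3.04) and 3.10-fold (2.66 to 3.61). Syt7, a slower sensor with high calcium affinity, was at 4.14 and 3.89 CPM in newborn neurons labelled E14 and E18 and at 19.1 and 25.7 CPM in maturing neurons, 4.62-fold and 6.61-fold. In the Calb1-led neurons labelled E16 it was at 35.1 CPM, above its level in each of those classes. Syt11, a form that does not bind calcium, behaved otherwise. It was at 119, 87.6 and 99.8 CPM in progenitors and at 105, 118 and 110 CPM in the neurons, so that the first step was 0.881-fold (0.813 to 0.954), 1.35-fold (1.23 to 1.47) and 1.10-fold (1.04 to 1.16). Within progenitors it was higher in radial glia, at 145, 89.0 and 111 CPM, than in intermediate progenitors, at 90.2, 78.6 and 79.7 CPM. In microglia and mural cells Syt11 was at 8.75, 10.5 and 8.24 CPM.

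Each complexin rose from progenitors to neurons in 2 libraries, Cplx2 in those labelled E16 and E18 and Cplx1 in those labelled E14 and E18. Cplx2 was at 38.5, 15.4 and 26.3 CPM in progenitors, at 54.8, 185 and 94.6 CPM in the neurons and at 74.9 and 262 CPM in maturing neurons. Its first step was 1.42-fold (1.26 to 1.62), 12-fold (10.8 to 13.3) and 3.59-fold (3.31 to 3.90). Cplx1 was at 3.52, 0.965 and 1.76 CPM in progenitors, at 10.1, 6.46 and 11.1 CPM in the neurons and at 43.6 and 50.9 CPM in maturing neurons. Its first step was 2.86-fold (1.97 to 4.23), 6.70-fold (4.08 to 10.9, under the minimum level) and 6.28-fold (4.69 to 8.5). It rose 4.33-fold (3.57 to 5.30) and 4.59-fold (3.82 to 5.55) at the second step, where Cplx2 was 1.37-fold higher in the library labelled E14, short of 2-fold, and rose 2.77-fold in that labelled E18.

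Of the priming factors, Unc13a, whose protein opens Stx1a for SNARE assembly, was at 1.89, 1.31 and 1.82 CPM in progenitors and at 12.6, 11.6 and 8.04 CPM in the neurons. That is 6.65-fold, 8.82-fold and, under the minimum level, 4.43-fold. It was at 15.6 and 13.8 CPM in maturing neurons, 1.24-fold and 1.72-fold above newborn neurons. Its promoter is the one printed above with both RE1 parts. Cadps, known for priming dense-core vesicles, did not rise in 2 libraries. It was at 28.1, 90.4 and 80.9 CPM in progenitors and at 60.9, 55.8 and 76.2 CPM in the neurons. The neurons labelled E14 were 2.16-fold (1.89 to 2.48) above their progenitors, those labelled E16 0.617-fold (0.545 to 0.697) and those labelled E18 0.942-fold (0.879 to 1.01). Whether these ratios differ between libraries beyond the spread between embryos could not be tested with 1 library each.

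Of the vesicle proteins, Syp, Sv2a and Sncb rose at the first step in every library. Syp, the membrane protein synaptophysin, was at 7.75, 2.25 and 5.10 CPM in progenitors and at 37.4, 32.7 and 41.1 CPM in the neurons, a rise of 4.82-fold, 14.5-fold and 8.07-fold. Its maturing neurons were at 32.7 and 62.7 CPM, 0.875-fold (0.779 to 0.984) and 1.53-fold (1.35 to 1.73) of newborn neurons, neither past 2-fold. Sv2a, a transporter-like vesicle protein, went from 6.40, 3.59 and 4.09 CPM to 25.9, 26.3 and 21.8 CPM and on to 54.8 and 63.3 CPM. Sncb, beta-synuclein, went from 2.34, 3.24 and 1.14 CPM to 25.2, 20.8 and 19.4 CPM and on to 74.4 and 67.8 CPM, so that it rose at every step. Its first step turned to log2 ratios of -0.92 with the stricter cell filter (E14) and -0.39 with separate clustering of each library (E16). Sv2a too rose at every step, by 4.04-fold, 7.32-fold and 5.31-fold and then by 2.12-fold and 2.91-fold.

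The synapsins, which tether vesicles in reserve, differed from one another. Syn1 was present in progenitors at 12.1, 9.65 and 11.0 CPM and in the neurons at 18.7, 19.0 and 15.9 CPM, a first step of 1.55-fold, 1.97-fold and 1.44-fold that did not pass 2-fold in any library. At the second step it was 1.80-fold (1.54 to 2.10) higher at 33.6 CPM in the library labelled E14 and rose 2.20-fold (1.84 to 2.64) to 34.9 CPM in that labelled E18. Syn3, the form known from immature neurons, rose 3.88-fold, 2.39-fold and 2.79-fold at the first step, to 25.9, 18.4 and 18.9 CPM, and reached 34.3 and 39.0 CPM. That step too turned, to log2 ratios of -0.60 with the stricter cell filter (E14) and -0.25 with separate clustering (E16). Syn2 was nearly unseen in progenitors, at 0.361, 0.173 and 0.461 CPM from 4, 7 and 17 UMIs. It was at 0.719, 11.2 and 3.69 CPM in the neurons, and at 1.63 CPM in maturing neurons labelled E14 against 47.0 CPM in those labelled E18, where the second step was 12.7-fold (9.56 to 17.2). Sv2b, a relative of Sv2a, had a like pattern, at 0.721, 0.124 and 0.298 CPM in progenitors, 0.899, 7.44 and 1.45 CPM in the neurons and 6.31 and 49.9 CPM in maturing neurons. Its second step in the library labelled E18 was 34.4-fold (22.4 to 55.6), and both genes were under the minimum level at that step in the library labelled E14.

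Rab3 GTPases sit on vesicles and bind Rim. Rab3a was at 39.4, 8.93 and 16.1 CPM in progenitors, at 273, 188 and 234 CPM in the neurons and at 433 and 413 CPM in maturing neurons. Its first step was 6.94-fold (6.27 to 7.68), 21.1-fold (18.6 to 23.8) and 14.5-fold (13.3 to 15.8), and its second, 1.59-fold and 1.77-fold, did not pass 2-fold. Rab3c rose at both steps, from 2.98, 1.73 and 1.76 CPM to 14.8, 29.2 and 17.1 CPM and then to 33.5 and 48.6 CPM. Rab3b was at 1.08, 0.322 and 1.71 CPM in progenitors and at 2.70, 25.3 and 4.61 CPM in the neurons. It reached 15.1 and 52.8 CPM in maturing neurons, 5.61-fold (3.88 to 8.42) and 11.5-fold (8.85 to 15) above newborn neurons.

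In the active zone group, Bsn, Pclo and Erc2 rose at the first step in all 3 libraries. Bsn (Bassoon) went from 6.40, 1.81 and 4.04 CPM to 15.9, 18.8 and 16.9 CPM, and its scaffold partner Pclo (Piccolo) from 8.48, 6.13 and 6.10 CPM to 31.5, 27.0 and 27.5 CPM. Erc2, an ELKS protein, went from 2.89, 2.5 and 2.2 CPM to 11.9, 11.8 and 14.2 CPM. At the second step none of the 5 rose in the library labelled E14, and Rims1 and Erc2 rose in that labelled E18, 4.59-fold (3.41 to 6.25) and 2.45-fold (2.04 to 2.96). Rims1 was at 3.25, 5.52 and 3.85 CPM in progenitors, 10.9, 6.86 and 4.35 CPM in the neurons and 19.9 and 20.0 CPM in maturing neurons. Rims2, the other large Rim gene, did not follow the neurons. It was at 24.8, 30.6 and 32.8 CPM in progenitors, at 20.5, 34.7 and 26.6 CPM in the neurons and at 18.2 and 28.1 CPM in maturing neurons. Its first step was 0.827-fold (0.690 to 0.989), 1.13-fold (0.962 to 1.33) and 0.810-fold (0.722 to 0.908).

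Both endocytosis genes rose from newborn to maturing neurons. At the first step the minimum level left 0, 1 and 0 of the 2 to compare. Dnm1, the dynamin that pinches off vesicles at terminals, was at 0.346 to 1.08 CPM in progenitors and at 1.85 to 3.72 CPM in the neurons, under the minimum at the first step in each library. It rose 3.01-fold (2.14 to 4.34) to 10.3 CPM and 5.98-fold (3.84 to 9.57) to 11.0 CPM in maturing neurons. Amph, amphiphysin, which recruits dynamin, was at 2.71, 6.75 and 2.96 CPM in progenitors and at 2.16, 7.44 and 2.57 CPM in the neurons. Within progenitors its UMIs lay mostly in radial glia, at 4.07, 7.50 and 4.14 CPM against 1.15, 1.72 and 0.708 CPM in intermediate progenitors. It rose 5.56-fold (3.67 to 8.79) and 6.42-fold (4.43 to 9.47) at the second step, to 11.99 and 16.5 CPM.

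By role, the first step is read against the 9.26%, 14.1% and 10.6% of all genes that rose. Of the 6 SNARE genes 5, 6 and 6 passed the minimum level and 3, 4 and 4 rose. Of the 5 synaptotagmins 4, 5 and 4 passed and 3, 4 and 3 rose, and of the 4 fusion regulators 4, 3 and 3 passed and 3, 2 and 2 rose. Of the 7 vesicle proteins 5, 6 and 5 passed and 4, 5 and 4 rose. All 2, 3 and 2 Rab3 genes that passed rose, and of the 5 active zone genes 5, 5 and 4 passed and 4, 3 and 3 rose. At the second step, where 5.03% and 6.73% of all genes rose, each member passed except 2 vesicle proteins in the library labelled E14. There 1 and 1 SNARE genes, 4 and 3 synaptotagmins, 1 and 2 fusion regulators, 2 and 6 vesicle proteins, 2 and 2 Rab3 genes, 0 and 2 active zone genes and 2 and 2 endocytosis genes rose. No group was tested against another, and members that passed through their higher class alone had to differ to some degree, though not by 2-fold.

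Between radial glia and intermediate progenitors most members were under the minimum level or short of 2-fold. From radial glia to intermediate progenitors of the same library, 5 members rose in the library labelled E14 (Snap25, Syp, Cplx2, Rab3a and Bsn), where 4.72% of all genes rose and 8.66% fell. In that labelled E16, 2 rose (Pclo and Napb) and 1 fell (Cadps), where 5.12% rose and 7.37% fell. In that labelled E18, 4 rose (Syp, Cplx2, Bsn and Pclo) and 0 fell, where 4.51% rose and 7.05% fell. The minimum level removed 14, 21 and 19 of the 32, and 13, 8 and 9 passed it without a 2-fold difference. Bsn had the highest ratio of those that passed in the libraries labelled E14 and E18. It was at 2.38, 1.42 and 1.37 CPM in radial glia and 11.0, 4.40 and 9.12 CPM in intermediate progenitors, which is 4.62-fold (2.54 to 8.97), 3.10-fold (1.80 to 5.17, under the minimum level) and 6.68-fold (4.50 to 10.2). The Cplx2 levels were 22.2, 14.2 and 17.3 CPM in radial glia and 56.9, 23.7 and 43.6 CPM in intermediate progenitors. The median log2 ratio over all 32 was 0.38, 0.36 and 0.29, beside -0.10, -0.10 and -0.11 over all genes past the minimum. Rest, which encodes the repressor that binds RE1, was at 21.9, 35.4 and 33.8 CPM in radial glia, 3.46, 11.1 and 6.13 CPM in intermediate progenitors and 0.989, 4.51 and 2.5 CPM in the neurons. It was at 3.40 and 4.89 CPM in maturing neurons, and a relation between Rest and the members was not tested.

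Between progenitors of different labels, Cadps was higher and several neuronal members were lower outside the library labelled E14. In the library labelled E16 against that labelled E14, 1 of 32 was higher and 5 were lower (Snap25, Syt4, Syp, Cplx2 and Rab3a), where 2.52% of all genes were higher and 7.37% lower. In that labelled E18 against that labelled E14, 1 was higher and 3 were lower (Snap25, Syt4 and Rab3a), where 0.782% were higher and 2.62% lower. Between the libraries labelled E18 and E16, 0 were higher and 0 lower, where 2.6% and 0.745% of all genes were. The minimum level removed 17, 15 and 21 members. These 3 comparisons share libraries. Because the share of intermediate progenitors among progenitors differed between libraries, radial glia were also compared alone, a choice made after seeing the data. Cadps then stood alone on the higher side in both comparisons with the library labelled E14, where 2.35% and 0.941% of all genes were higher, and 3 members (Snap25, Syt5 and Rab3a) and 1 (Snap25) were lower, where 7.36% and 3.30% were. Between radial glia labelled E18 and E16, 0 members were higher and 0 lower, where 2.07% and 0.673% of all genes were.

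**Figure D3:**
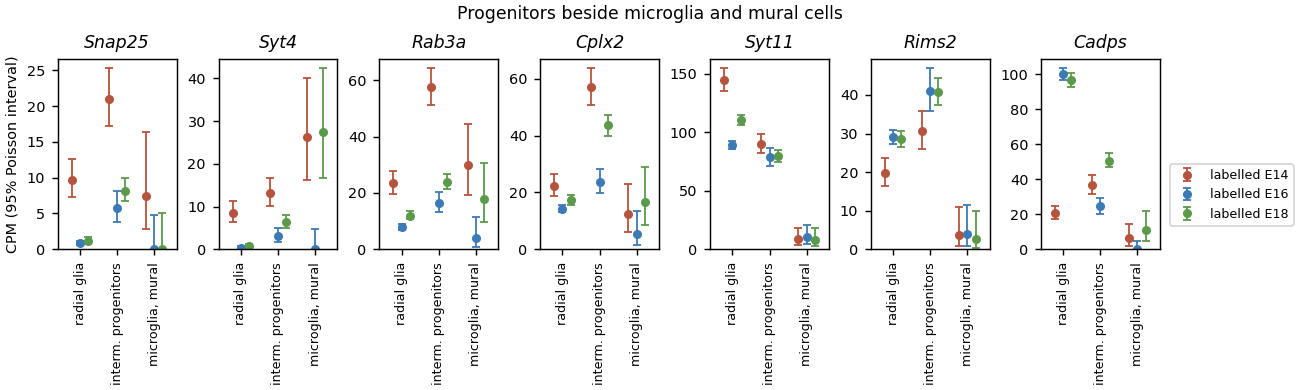
Level in CPM, with 95% Poisson intervals, of 7 members in radial glia, intermediate progenitors, and microglia with mural cells of each library label. Cadps is near 100 CPM in radial glia labelled E16 and E18 and near 20.5 CPM in those labelled E14. Syt4 in microglia and mural cells labelled E14 and E18 is above its radial glia levels. For Rab3a the intervals of microglia and mural cells include the radial glia levels.

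Cadps was at 20.5, 100 and 96.7 CPM in radial glia, so that those labelled E16 were 4.88-fold (4.07 to 5.90) and those labelled E18 4.71-fold (3.92 to 5.70) above those labelled E14. In intermediate progenitors it was at 36.7, 24.5 and 50.7 CPM. It thus lay higher in intermediate progenitors than in radial glia in the library labelled E14, by 1.79-fold (1.42 to 2.27), and lower in the other libraries, at 0.244-fold (0.203 to 0.291) and 0.524-fold (0.480 to 0.572). Microglia and mural cells had 6.25, 0 and 11.0 CPM of Cadps. Across the alternatives the log2 ratio in progenitors stayed between 1.08 and 2.23 for the labels E16 over E14, and between 1.34 and 2.18 for E18 over E14.

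Neuronal transcripts were also seen in microglia and mural cells, at levels that differed between the libraries. Cluster 24, named microglia, was led by Cldn5, an endothelial marker, with C1qb and Aif1 next. No cluster was named endothelial, so the group may hold endothelial cells too. Microglia and mural cells do not lack every member: Nsf, an ATPase of all cells, was at 12.5, 22.3 and 24.7 CPM in them. Sv2a was at 12.5, 13.1 and 33.0 CPM there, the last above the 21.8 CPM of newborn neurons labelled E18. In radial glia Snap25 was at 9.67, 0.824 and 1.16 CPM, and in the 29, 41 and 38 microglia and mural cells it was at 7.50, 0 and 0 CPM. The first of these values is 6 UMIs in 1 cell. Rab3a was at 23.4, 7.81 and 11.96 CPM in radial glia and at 30.0, 3.93 and 17.9 CPM in microglia and mural cells. For Rab3a both cell groups were highest in the library labelled E14. Syt4, at 8.48, 0.369 and 0.786 CPM in radial glia, was at 26.2, 0 and 27.5 CPM in microglia and mural cells. Stmn2, an abundant neuronal gene, was at 107, 19.3 and 19.6 CPM in radial glia and at 210, 5.24 and 19.2 CPM in microglia and mural cells. The 13 maturing neuron markers had median log2 ratios of -1.06 (E16 over E14) and -1.14 (E18 over E14) in radial glia, with 5 lower and 0 higher in each. Summed over the 32 members, microglia and mural cells had 232 (200 to 268), 101 (79.6 to 126) and 192 (162 to 227) CPM, with 4, 17 and 11 members at 0. The part of such transcripts in the progenitor values was not tested. Rims2 was at 19.7, 29.1 and 28.6 CPM in radial glia and at 3.75, 3.93 and 2.75 CPM in microglia and mural cells, and with Syt11 and Cadps it lay above the level in those cells in every library. Unc13a, at 7.50, 2.62 and 4.12 CPM in microglia and mural cells, did not.

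Among newborn neurons few members differed 2-fold between the libraries labelled E14 and E18, whose newborn neurons came almost wholly from different clusters. Of 32, 0 were higher and 1 was lower in those labelled E18, where 1.39% of all genes were higher and 1.95% lower, and 6 were under the minimum. The one was Rims1, 0.400-fold (0.292 to 0.544), at 10.9 and 4.35 CPM, and its log2 ratio ran from -1.5 to 0.58 over the alternatives. Short of the threshold, which is set with 1 CPM added, were Syt5, 0.499-fold (0.428 to 0.581) at 38.0 and 19.0 CPM and a log2 ratio of -0.97, Cplx2, 1.73-fold (1.57 to 1.90), and Syt1, 1.69-fold (1.34 to 2.14). The median log2 ratio over all 32 was 0.11 beside -0.01 over all genes past the minimum. That count rests on how the cells were clustered and filtered, since 14 members were higher at Leiden resolution 0.5 and 8 with the stricter cell filter. The Calb1-led neurons labelled E16 against newborn neurons labelled E14 had 5 members higher (Syt1, Syt7, Syn2, Cplx2 and Rab3b) and 0 lower, where 5.02% of all genes were higher and 4.74% lower. Syt7 was 8.48-fold (6.1 to 12), Rab3b 9.37-fold (6.26 to 14.4) and Syn2 15.5-fold (7.37 to 37.7) higher there. Newborn neurons labelled E18 against the Calb1-led neurons had 0 higher and 4 lower (Syt7, Syn2, Rab3b and Amph), where 2.16% of all genes were higher and 3.30% lower. These are different clusters and not 1 class at different labels. With each library clustered on its own, 359 cells labelled E16 took the newborn place, and Syt1, Syn2 and Rab3b were then lower than in newborn neurons labelled E14, at log2 ratios of -0.17, -1.18 and -0.11. The counts turned as well, to 2 higher and 11 lower for E16 over E14, with a median over all 32 of -0.67 in place of 0.05. For E18 over E16 they turned to 7 higher and 1 lower, with Syn2, Rab3b and Amph at 1.96, 0.34 and 1.05 and a median of 0.33 in place of -0.25.

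Maturing neurons labelled E18 differed from those labelled E14 in 5 members, all higher. They were Syn2, Sv2b, Cplx2, Rab3b and Syt1, where 2.91% of all genes were higher and 1.71% lower, and 1 member, Vamp1, was under the minimum. The median log2 ratio over all 32 was 0.38 beside 0.06 over all genes past the minimum. Syn2 was at 1.63 and 47.0 CPM, 28.8-fold (21.2 to 40.0). Sv2b was at 6.31 and 49.9 CPM, 7.91-fold (6.6 to 9.51). Cplx2 was at 74.9 and 262 CPM, 3.50-fold (3.28 to 3.72), and Rab3b at 15.1 and 52.8 CPM, 3.49-fold (3.03 to 4.01). Rab3a and Vamp2, by contrast, were 0.953-fold (0.915 to 0.992) and 1.05-fold (0.969 to 1.13), nearly level between the libraries. Syt4 was 0.659-fold (0.622 to 0.698) and Syt5 0.565-fold (0.509 to 0.626), neither past 2-fold. Of the 13 markers of maturing neurons 1 was higher and 1 lower in this pair, with a median log2 ratio over all 13 of 0.08, and of the 10 markers of newborn neurons 3 were higher and 2 lower.

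The 2 libraries hold different maturing clusters, and 1 cluster had over 50 cells of both. That is cluster 12, led by Crym, Rprml, Dact1 and Pcp4, with 72 cells labelled E14 and 492 labelled E18. Within it Syn2 was at 12.02 and 47.1 CPM, 3.92-fold (2.41 to 6.81), which is a smaller ratio than over all maturing neurons. Sv2b, at 6.36 and 50.2 CPM, was 7.90-fold (4.11 to 17.4), Cplx2 4.33-fold (3.49 to 5.43) and Rab3b 3.18-fold (2.10 to 5.03), ratios close to those over all maturing neurons. Syt1 was 1.48-fold (1.15 to 1.92), no longer past 2-fold, and its log2 ratio fell under 1 in other alternatives too. Cplx1, Pclo and Amph had ratios of 2.5 (1.71 to 3.79), 2.35 (1.60 to 3.56) and 5.67 (2.15 to 21.2) within the cluster, against 1.17, 1.5 and 1.38 over all maturing neurons. Across all alternatives the log2 ratio was 1.89 to 5.09 for Syn2, 2.20 to 3.23 for Sv2b, 1.43 to 2.16 for Cplx2 and 1.26 to 1.86 for Rab3b.

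**Figure D4:**
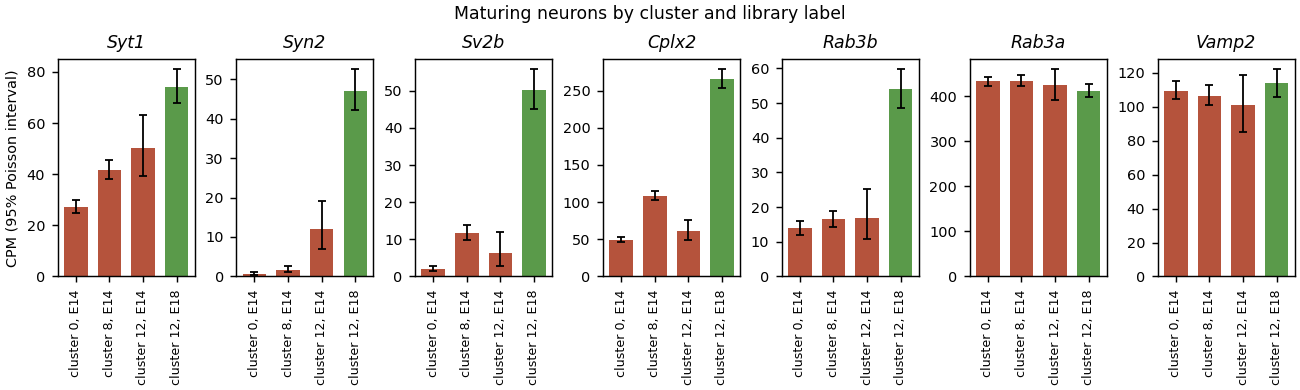
Level in CPM, with 95% Poisson intervals, of 7 members in the maturing neuron clusters that hold at least 50 cells of a label: clusters 0, 8 and 12 labelled E14 and cluster 12 labelled E18. Sv2b, Cplx2 and Rab3b are highest in the bar labelled E18, Syn2 is raised in both bars of cluster 12, and Rab3a and Vamp2 are level.

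Within the library labelled E14 the maturing clusters also differed from one another. Snap25 was at 67.5 CPM (63.5 to 71.8) in cluster 0, at 268 CPM (259 to 278) in cluster 8 and at 108 CPM (91.1 to 126) in cluster 12. Snap25 is itself among the leading genes of cluster 8, and Syt4 among those of cluster 0, where it was at 403 CPM against 164 and 235 CPM, so these values describe how the clusters differ and test nothing. Cadps was at 32, 57.3 and 140 CPM and Syn2 at 0.655, 1.64 and 12.02 CPM in clusters 0, 8 and 12. Rab3a, at 433, 435 and 424 CPM, was level across them.

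The share of cells with at least 1 Snap25 UMI followed the same order. With each cell thinned to 2000 UMIs it was 3.21%, 0.228% and 0.745% of progenitors, 10.4% (8.83 to 12.1), 6.33% (4.45 to 8.69) and 8.51% (7.24 to 9.92) of newborn or Calb1-led neurons, and 23.9% (22 to 25.9) and 29.5% (25.5 to 33.7) of maturing neurons. Before thinning, the shares were 16.2%, 2.01% and 4.13%, then 32.6%, 22.8% and 31.9%, then 68.6% and 81.4%, at class median depths of 7568 to 14365.5 UMIs per cell. In microglia and mural cells, with a median of 14976.5 UMIs, it was 0 of 108 cells at 2000 UMIs, which allows a share of up to 3.36% (exact 95% interval), and 0.926%, or 1 cell, before thinning. So few cells set no useful limit on background for the low shares in progenitors. By level, intermediate progenitors had 21.0 (17.2 to 25.3), 5.73 (3.87 to 8.19) and 8.18 (6.68 to 9.91) CPM of Snap25, and microglia and mural cells 7.50 (2.75 to 16.3), 0 (up to 4.83) and 0 (up to 5.07) CPM. The intervals are apart in the libraries labelled E14 and E18 and overlap in that labelled E16. In radial glia the 9.67 CPM labelled E14 lay inside the interval of microglia and mural cells, and the 0.824 and 1.16 CPM of the other labels lay under its upper limit. Snap25 in radial glia was thus not told apart from background. The interval of microglia and mural cells labelled E14 treats 6 UMIs of 1 cell as independent. It therefore cannot decide the comparison with intermediate progenitors or with radial glia for that label. Thinning left out 1 to 15 cells of a class and library. The mean number of the 32 members seen in a cell at 2000 UMIs was 0.795, 0.592 and 0.679 in progenitors, 1.96, 2.04 and 1.93 in the neurons, 2.98 and 3.70 in maturing neurons and 0.296 in microglia and mural cells.

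Other genes of the synapse were counted in the same way. Of 44 other presynaptic genes, chosen with earlier results known, 21, 21 and 20 passed the minimum level, and 10, 14 and 11 rose and 0 fell from progenitors to neurons, where 9.26%, 14.1% and 10.6% of all genes rose. The list had medians over all 44 genes of 0.42, 0.86 and 0.41 on the log2 scale. Ppfia2, a liprin that assembles active zones, rose in every library, from 13.9, 3.66 and 6.94 CPM to 130, 143 and 130 CPM. At the second step 24 and 23 passed, 6 and 10 rose and 2 and 3 fell, where 5.03% and 6.73% of all genes rose and 5.28% and 3.90% fell. Slc17a6, the vesicular glutamate transporter VGLUT2, fell from 75.8 to 6.44 CPM and from 91.4 to 18.0 CPM. Slc17a7, VGLUT1, was at 17.6 and 50.4 CPM in newborn and at 29.1 and 110 CPM in maturing neurons. Of 23 widely used SNARE genes, which serve membrane traffic in all cells, 21, 22 and 22 passed, and 1, 2 and 1 rose and 3, 2 and 3 fell at the first step, where 13.9%, 16% and 14.3% of all genes fell, with list medians of 0.03, 0.26 and 0.14. Snap23, the form of Snap25 used outside neurons, fell from 21.8, 28.8 and 25.6 CPM to 4.49, 5.88 and 6.26 CPM, opposite to Snap25, and Stx7, an endosomal syntaxin, rose from 69.1, 26.0 and 44.7 CPM to 204, 195 and 226 CPM.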

How the data were processed

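Cells from rat embryonic cortex were captured with the 10x Genomics 3′ kit (version 3.1), per the labels' protocols, in 3 libraries with 1 library for each label. The deposited files hold raw UMI counts per gene and barcode, made with Cell Ranger 6.0.1 on build mRatBN7.2, per the submitters' processing notes, and the gene annotation is not given in the sources used here. Without its counting rules, reads of near-identical or overlapping genes cannot be assigned with certainty.

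Barcodes with at least 1000 genes and at most 10% mitochondrial UMIs were kept. Doublets were scored by Scrublet's method, written with scikit-learn 1.9.0, and the top 0.8% per 1000 cells of each library were removed (158, 216 and 259 cells). Cells of all libraries were clustered together in scanpy 1.11.5 on 2000 variable genes, with the 32 members and 44 other presynaptic genes left out, 30 principal components, 15 neighbours and Leiden resolution 1 (leidenalg 0.10.2). Of 27 clusters, 24 were named from 124 marker symbols in 15 classes, by at least 3 markers raised 1.2-fold with 10 CPM added. The counts of each class were summed within a library and scaled to 1000000 UMIs (CPM). Classes under 50 cells in a library were not compared, except microglia and mural cells, whose levels are given for comparison. Poisson intervals of levels, conditional binomial intervals of ratios and Clopper-Pearson intervals of shares are exact, at 95%, and cover counting error only. The calculation was tested on simulated data. The work was done in Python 3.11.15 with scipy 1.17.1, numpy 2.4.6, matplotlib 3.10.9 and pandas 2.3.3.

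All 32 members are accounted for by role, with values for those past 2-fold in a comparison, and of the other lists only genes among the 2 highest or lowest of a comparison are named. The members and lists were chosen with earlier results of these data known. The alternatives were other cell filters, doublet rates, resolutions and variable genes, separate clustering, other CPM denominators, pseudocounts and minimum levels, and other thinning depths. Comparing radial glia alone, comparing the shared maturing cluster alone and giving every cluster its best class were added after seeing the data.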

Additional observations from a re-analysis of the deposited data

Results flagged for a closer look

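Syt11, Cadps and Syp had a ratio whose counting interval lay above 1 in one library and below 1 in another. From progenitors to neurons, Syt11 was 0.881-fold in the library labelled E14, 1.35-fold in that labelled E16 and 1.10-fold in that labelled E18. Cadps was 2.16-fold in the library labelled E14 and 0.617-fold in that labelled E16. From newborn to maturing neurons, Syp was 0.875-fold in the library labelled E14 and 1.53-fold in that labelled E18, and Cadps 0.788-fold and 1.25-fold. With 1 library for each label these differences between labels were not tested. Of the values, 1 is past 2-fold, the Cadps ratio of 2.16.

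Barcodes that the cell filter or the doublet step left out also held UMIs of the members. Summed over the 32 members they had 1537, 363.8 and 821.7 CPM in 2814, 1730 and 1506 barcodes labelled E14, E16 and E18, beside 1390, 407.9 and 802.2 CPM in all kept cells.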

How the results depend on the processing

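No paired analysis was possible because each label has 1 library, and for the same reason no replicate could be left out. Of 5344 values of single members under the alternatives, 4182 lay within the counting interval of the reported value and 1147 outside it, and 15 values of members past 2-fold changed sign. Medians over all 32 members kept their sign for both steps, for progenitors and for maturing neurons, from 0.08 to 1.66 at the first step labelled E14. In newborn neurons they changed sign under some alternatives, from -0.67 to 0.96 (E16 over E14), from -0.26 to 0.92 (E18 over E14) and from -0.33 to 0.33 (E18 over E16). Resolution 0.5 left 1 cell in the newborn place labelled E16 and 10 cells named maturing labelled E18, and giving every cluster its best class left no newborn place for the label E16, so these gave no values there. The cause of each shift was not tested, apart from settings that test fewer genes or cells by construction.

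With a minimum of 20 CPM, which tests fewer genes, members higher in newborn or Calb1-led neurons than in progenitors numbered 7, 4 and 6. The lower call of maturing neurons went to 0 in both libraries. In progenitors 2 (E16 over E14) and 1 (E18 over E14) were lower, in newborn neurons 2 were higher (E16 over E14), and 0 were lower (E18 over E14 and E18 over E16). With no minimum, 3 (E16 over E14) and 2 (E18 over E16) members were higher in progenitors and 1 in newborn neurons (E18 over E14). With 5 CPM added, the lower calls of maturing neurons and of newborn neurons (E18 over E14) were 0, and 2 were lower in newborn neurons (E18 over E16).

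The stricter cell filter, which keeps fewer cells, gave 5 higher and 1 lower from progenitors to newborn neurons labelled E14, with Syt1 at -1.22, Syt5 at -0.03, Syn3 at -0.60 and Sncb at -0.92 on the log2 scale, and 1 lower labelled E16. From newborn to maturing neurons it gave 21 higher and 0 lower labelled E14, with Vamp1 at 0.49, and 0 lower labelled E18. In progenitors it gave 2 higher and 3 lower (E16 over E14) and 1 lower (E18 over E16). In newborn neurons it gave 11 higher and 1 lower (E16 over E14), 8 higher and 0 lower (E18 over E14, Rims1 at 0.05), and 2 higher and 2 lower (E18 over E16). The looser filter gave 0 lower from newborn to maturing neurons labelled E14, and in newborn neurons 1 lower (E16 over E14) and 1 higher and 0 lower (E18 over E14).

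With each library clustered on its own, Syn3 was at -0.25 and Sncb at -0.39 from progenitors to newborn neurons labelled E16, and 0 were lower from newborn to maturing neurons labelled E14. In newborn neurons 2 were higher and 11 lower (E16 over E14; Syt1 -0.17, Syn2 -1.18, Rab3b -0.11), 2 lower (E18 over E14), and 7 higher and 1 lower (E18 over E16; Syn2 1.96, Rab3b 0.34, Amph 1.05), and 1 was lower in maturing neurons (E18 over E14). At resolution 2, 0 were lower from newborn to maturing neurons labelled E14, and in newborn neurons 1 was lower (E16 over E14), 0 lower (E18 over E14), and 1 higher and 1 lower (E18 over E16). At resolution 0.5, 3 were lower in progenitors (E16 over E14), and 14 were higher and 0 lower in newborn neurons (E18 over E14), with Rims1 at 0.58.

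With no doublets removed, 0 were lower from newborn to maturing neurons in both libraries, 1 was higher in progenitors (E18 over E16), 1 (E16 over E14) and 4 (E18 over E14) were lower in newborn neurons and 1 in maturing neurons. With doublets removed at 2 times the rate, 0 were lower from newborn to maturing neurons labelled E14 and 3 in progenitors (E16 over E14). In newborn neurons 1 was higher and 0 lower (E18 over E14) and 2 higher and 1 lower (E18 over E16), and 1 was lower in maturing neurons. With the members among the variable genes, 0 were lower from newborn to maturing neurons in both libraries, 1 (E16 over E14) and 3 (E18 over E14) were lower in newborn neurons and 1 in maturing neurons. With CPM taken without mitochondrial, ribosomal protein and haemoglobin genes, 2 were higher (E16 over E14) and 1 lower (E18 over E16) in progenitors. Radial glia alone gave 3 (E16 over E14) and 1 (E18 over E14) lower.

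Shares of cells with a Snap25 UMI depend on depth by construction, and newborn neurons labelled E16 are here the Calb1-led neurons. At 1000 UMIs per cell they were 1.65% (E14) and 0.459% (E18) of progenitors, 0.249% of radial glia (E14), 1.80% (E14) and 1.08% (E18) of intermediate progenitors, 4.82%, 4.12% and 4.30% of newborn neurons and 11.7% and 16.8% of maturing neurons. At 4000 UMIs they were 5.96%, 0.668% and 1.67% of progenitors, 7.59% (E14) and 3.53% (E18) of intermediate progenitors, 19.1%, 11.5% and 17.2% of newborn neurons and 37.4% and 48.3% of maturing neurons. Without thinning they were 16.2%, 2.01% and 4.13% of progenitors, 13.4%, 1.33% and 1.51% of radial glia, 18.7%, 5.18% and 8.17% of intermediate progenitors, 32.6%, 22.8% and 31.9% of newborn neurons and 68.6% and 81.4% of maturing neurons.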

Other observations

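Members were also measured in neurons other than the newborn and maturing classes. In Cajal-Retzius cells, the Reln-expressing glutamatergic neurons of the marginal zone, Syt7 was at 175 CPM in the 144 cells labelled E16 and at 290 CPM in the 73 cells labelled E18. In the GABAergic lineage, which gives rise to inhibitory neurons, Syt7 was at 5.32, 0 and 2.42 CPM in 57, 78 and 71 cells. Syt1 was at 98.5, 41.3 and 274 CPM in the GABAergic lineage and at 101 and 70.8 CPM in Cajal-Retzius cells. Syt4 was low in Cajal-Retzius cells, at 4.63 and 20.2 CPM, and Sv2b was at 27.0 and 45.5 CPM there. Summed over the members, the GABAergic lineage had 1482 (1362 to 1611), 888 (817 to 963) and 1556 (1438 to 1681) CPM, and Cajal-Retzius cells 1256 (1195 to 1318) and 1676 (1597 to 1759) CPM. These classes are small and were not compared with the excitatory neurons.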
